A study of Homo sapiens with 18 samples.

Results

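The promoters of 9 genes of antigen presentation were followed through both assays of the study: those of HLA-B, HLA-C, HLA-E, HLA-F, B2M, TAP1, TAP2, CIITA and NLRC5, out of 20136 protein-coding gene promoters on GRCh37. A promoter was the stretch within 1 kb either side of the gene's 5′ end in GENCODE 44, and the genes were given by name. DNA of 3 untreated cancer cell lines was used: HCT15 from a colorectal carcinoma and DU145 and PC3 from prostate cancer, all grown in complete medium. For DU145, the labels and the study's methods name different suppliers. The DNA of each cell line was captured with 5 commercial kits built on a methyl-CpG binding domain (MBD), which retain methylated fragments, and sequenced (MBD-seq, 15 libraries in all), and was also analysed by reduced representation bisulfite sequencing (RRBS, 1 library per cell line), which counts methylated and unmethylated reads at single CpGs. The kits were MethylMagnet, MethylCollector, MethylCollector Ultra, MethylCap and MethylMiner. As no kit was repeated on a cell line, the 5 kits stood in as replicates of a cell line, and tests over them measure the spread between kits on the same DNA rather than between cultures.

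Class I molecules show peptides from inside the cell to T cells. Each consists of a heavy chain, such as HLA-B, HLA-C, HLA-E or HLA-F, and the light chain beta-2 microglobulin, encoded by B2M, and is loaded with peptides that the transporter TAP1/TAP2 pumps into the endoplasmic reticulum. NLRC5 switches on class I genes and CIITA switches on class II genes, which are otherwise restricted to antigen-presenting cells, and CIITA itself is transcribed from several alternative promoters. Promoters of class I genes are CpG-rich and usually unmethylated, and their loss of expression is a known route by which tumours escape immune recognition.

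The 5′ ends of the heavy chain genes lay on chromosome 6, at 29690552 for HLA-F and 30457286 for HLA-E on the plus strand and at 31239907 for HLA-C and 31334844 for HLA-B on the minus strand. TAP2 (32806516) and TAP1 (32821593) lay further along the same chromosome on the minus strand, B2M (45003556) on chromosome 15, and CIITA (10960079) and NLRC5 (57023397) on chromosome 16, all 3 on the plus strand. RRBS reached these promoters unevenly. Of the 9 windows, 6 held at least 1 CpG with 10 or more reads in at least 1 cell line and 4 did so in all 3 cell lines. HLA-B, TAP1 and TAP2 had none in any cell line, although their windows hold 40, 126 and 97 CpGs, so that their methylation was not measured by RRBS. HLA-F had 3 CpGs in DU145 only, HLA-E 11 CpGs in HCT15 only, and the 6, 12 and 1 CpGs of HLA-C in HCT15, DU145 and PC3 were not shared between cell lines. B2M had 17, 13 and 32 CpGs and NLRC5 27, 27 and 15 in HCT15, DU145 and PC3, whereas CIITA had 3 in each. In total 95 positions were read in any cell line and 31 in all 3.

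Stretches with the longest runs of measured CpGs of B2M, HLA-E and HLA-C are given here from GRCh37, 5′ to 3′ along the gene, with the CpGs that RRBS read at least 10 times in any cell line in capitals. They were taken outside untranslated exons. That of B2M holds 16 of the gene's 32 measured positions, that of HLA-E all 11 and that of HLA-C 10. B2M from 440 to 589 bp downstream of the 5′ end, at chr15:45003996-45004145, lies mostly in its intron. HLA-E from 391 to 493 bp at chr6:30457677-30457779 covers the end of a coding exon, and HLA-C from 298 to 377 bp is coding sequence at chr6:31239530-31239609, read from the minus strand.
B2M: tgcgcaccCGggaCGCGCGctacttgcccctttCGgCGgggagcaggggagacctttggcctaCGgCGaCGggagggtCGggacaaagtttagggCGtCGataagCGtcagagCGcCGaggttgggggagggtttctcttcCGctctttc
HLA-E: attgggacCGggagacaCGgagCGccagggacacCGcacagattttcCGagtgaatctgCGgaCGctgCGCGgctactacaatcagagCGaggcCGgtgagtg
HLA-C: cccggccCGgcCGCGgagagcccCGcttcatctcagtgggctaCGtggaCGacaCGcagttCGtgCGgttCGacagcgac

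These 3 stretches are CpG-dense. Stretches around the measured CpGs of NLRC5, CIITA and HLA-F were examined in the same way, that of HLA-F up to the end of its deepest MBD-seq stretch. Of the 20-base words of the HLA-E stretch, 83 of 84 occurred once in GRCh37 (both strands searched), as did 129 of 131 words in B2M and 111 of 113 in NLRC5. In HLA-C, 17 of 61 words occurred once and the median was 2 copies, the class I heavy chain genes being close relatives. The words of the CIITA stretch had a median of 2516 copies and those of the HLA-F stretch a median of 1291, with up to 141706 and 237769 copies. Both follow the sequence of an Alu element, a short interspersed repeat of primates that is heavily methylated in most tissues.

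Among the member CpGs, the methylation level separated by the 4 bases around the CpG. CCGG and TCGA are the recognition sites of the restriction enzymes MspI and TaqI, both in use for RRBS; the enzymes of these libraries are not given in the sources used here. Member CpGs inside CCGG or TCGA had medians of 58.6%, 53.5% and 55% methylated reads in HCT15, DU145 and PC3 (18, 14 and 13 CpGs). All other member CpGs had a median of 0% in each cell line (46, 44 and 38 CpGs). Only 5 values outside these sites exceeded 10%, namely 3 of HLA-F in DU145 and a CIITA CpG in HCT15 and DU145. The separation was not particular to these genes. In promoters whose remaining CpGs averaged under 5%, CpGs inside CCGG had medians of 51.3%, 52.2% and 52.1% in HCT15, DU145 and PC3 and those inside TCGA medians of 53.8%, 55% and 54.8%, against 0% for the others in all 3 cell lines. The low level of the others follows from how these promoters were chosen, and only the level inside the sites was free to vary. The part of the library preparation in the separation was not tested. Levels of the members are therefore given with all CpGs and again without those inside the 2 sites, a choice made after the values were seen.

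**Figure D1:**
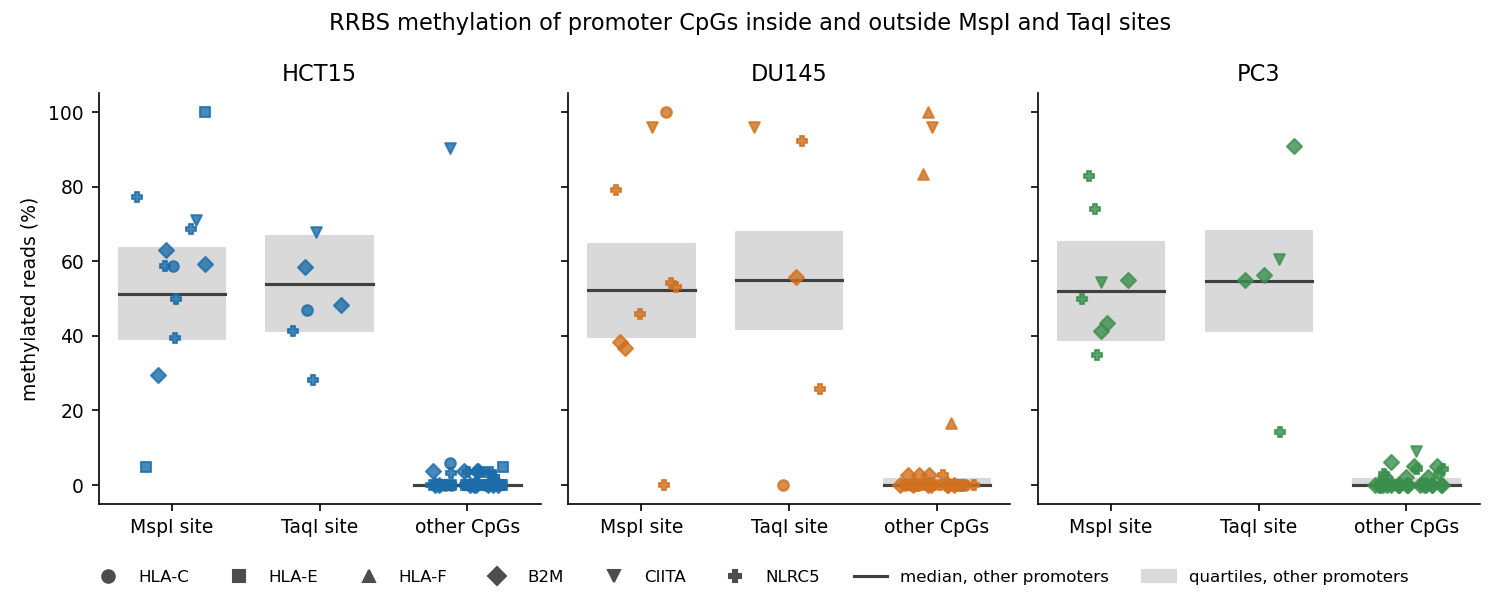
Methylated reads (%) of every member CpG with at least 10 reads, by cell line and by whether the CpG lies inside an MspI site (CCGG), a TaqI site (TCGA) or neither, symbols naming the gene. Grey lines and boxes are the median and quartiles over promoters whose CpGs outside these sites averaged under 5%, and member CpGs outside the sites lie near 0 apart from HLA-F and CIITA.

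At the class I light chain gene, nearly all reads outside CCGG and TCGA were unmethylated. In HCT15, B2M averaged 16.1% ± 24.7 (SD over 17 CpGs). The mean was 10.7% ± 19.3 in DU145 (13 CpGs) and 11.4% ± 23.4 in PC3 (32 CpGs), levels exceeded by most of the promoters with at least 5 measured CpGs: 47.7%, 16.0% and 22.3% of them were lower. These means and ranks include the 5, 3 and 6 CpGs inside CCGG and TCGA. Outside CCGG and TCGA, 4 of 323 reads (1.24%, Wilson 95% interval 0.483% to 3.14%) were methylated in HCT15. The same count was 3 of 380 reads in DU145 (0.789%, 0.269% to 2.30%) and 6 of 690 reads in PC3 (0.870%, 0.399% to 1.88%). These intervals, like all those below, cover counting error only. Reads were summed over CpGs, so that a read spanning several CpGs counts once at each. Intervals pooled over CpGs are therefore too narrow. At the single CpG at 453 bp in HCT15, 0 of 27 reads methylated allows up to 12.5%. Of its CpGs at CCGG or TCGA, 3 were read in all cell lines, and none of them was called different between cell lines. At 448 bp the level was 29.6%, 36.8% and 41.3% in HCT15, DU145 and PC3, at 538 bp 58.5%, 55.8% and 56.5%, and at 711 bp 63.2%, 38.5% and 43.3%. The 4 CpGs from 227 to 91 bp upstream of B2M, read in HCT15 and PC3, lie in an untranslated part of the neighbouring gene PATL2, whose 5′ end falls in the same window. There, the 2 CpGs outside the sites read 0% and 3.70% in HCT15 and 5% and 5% in PC3.

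Of the heavy chains, HLA-C and HLA-E were likewise almost unmethylated outside CCGG and TCGA. With all CpGs, HLA-C averaged 18.6% ± 26.9 (SD over 6 CpGs) in HCT15 and 8.33% ± 28.9 over 12 CpGs in DU145, and HLA-E 9.96% ± 29.9 over 11 CpGs in HCT15. Of the ranked promoters, 54.2% and 3.20% were lower than HLA-C in HCT15 and DU145, and 13.3% lower than HLA-E in HCT15. HLA-C had 2 of 102 methylated reads outside CCGG and TCGA in HCT15 (1.96%, 0.539% to 6.87%) and 0 of 200 in DU145 (upper bound 1.88%). In PC3, its only CpG had 0 of 13 reads methylated, which leaves a share of up to 22.8% possible. HLA-E in HCT15 had 1 of 210 (0.476%, 0.0841% to 2.65%). The CpGs inside the 2 sites ran from 0% to 100%. In HLA-C they stood at 58.8% and 47.1% in HCT15, at 592 and 660 bp, and at 0% in DU145 at 369 bp. In HLA-E that at 485 bp stood at 4.76%. A CpG inside CCGG was fully methylated at 306 bp in HLA-C in DU145 (11 of 11 reads) and at 399 bp in HLA-E in HCT15 (21 of 21 reads), whereas the next CpGs downstream, at 310 bp and 408 bp, had 0 of 11 and 0 of 21 reads methylated.

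NLRC5, the class I activator, showed the same picture. HCT15 had a mean of 14.3% ± 24.2 (SD over 27 CpGs), DU145 of 13.1% ± 26.8 over 27 CpGs and PC3 of 18.0% ± 28.6 over 15 CpGs. Of the ranked promoters, 40.2%, 32.3% and 56.6% were lower in HCT15, DU145 and PC3. Outside the 2 sites, 8 of 864 reads were methylated in HCT15 (0.926%, 0.470% to 1.82%), 2 of 1092 in DU145 (0.183%, 0.0502% to 0.665%) and 6 of 392 in PC3 (1.53%, 0.703% to 3.30%). Of the CCGG and TCGA CpGs read in all 3 cell lines, that at 318 bp stood highest in each, at 77.3%, 79.2% and 82.9% in HCT15, DU145 and PC3. That at 203 bp stood lowest in each, at 28.3%, 25.8% and 14.3%. That at 267 bp, the most deeply read, stood between them at 50%, 53.0% and 50%. The highest, middle and lowest of the 5 sites were thus the same in the 3 libraries, while those at 365 bp and 457 bp changed places in DU145.

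**Figure D2:**
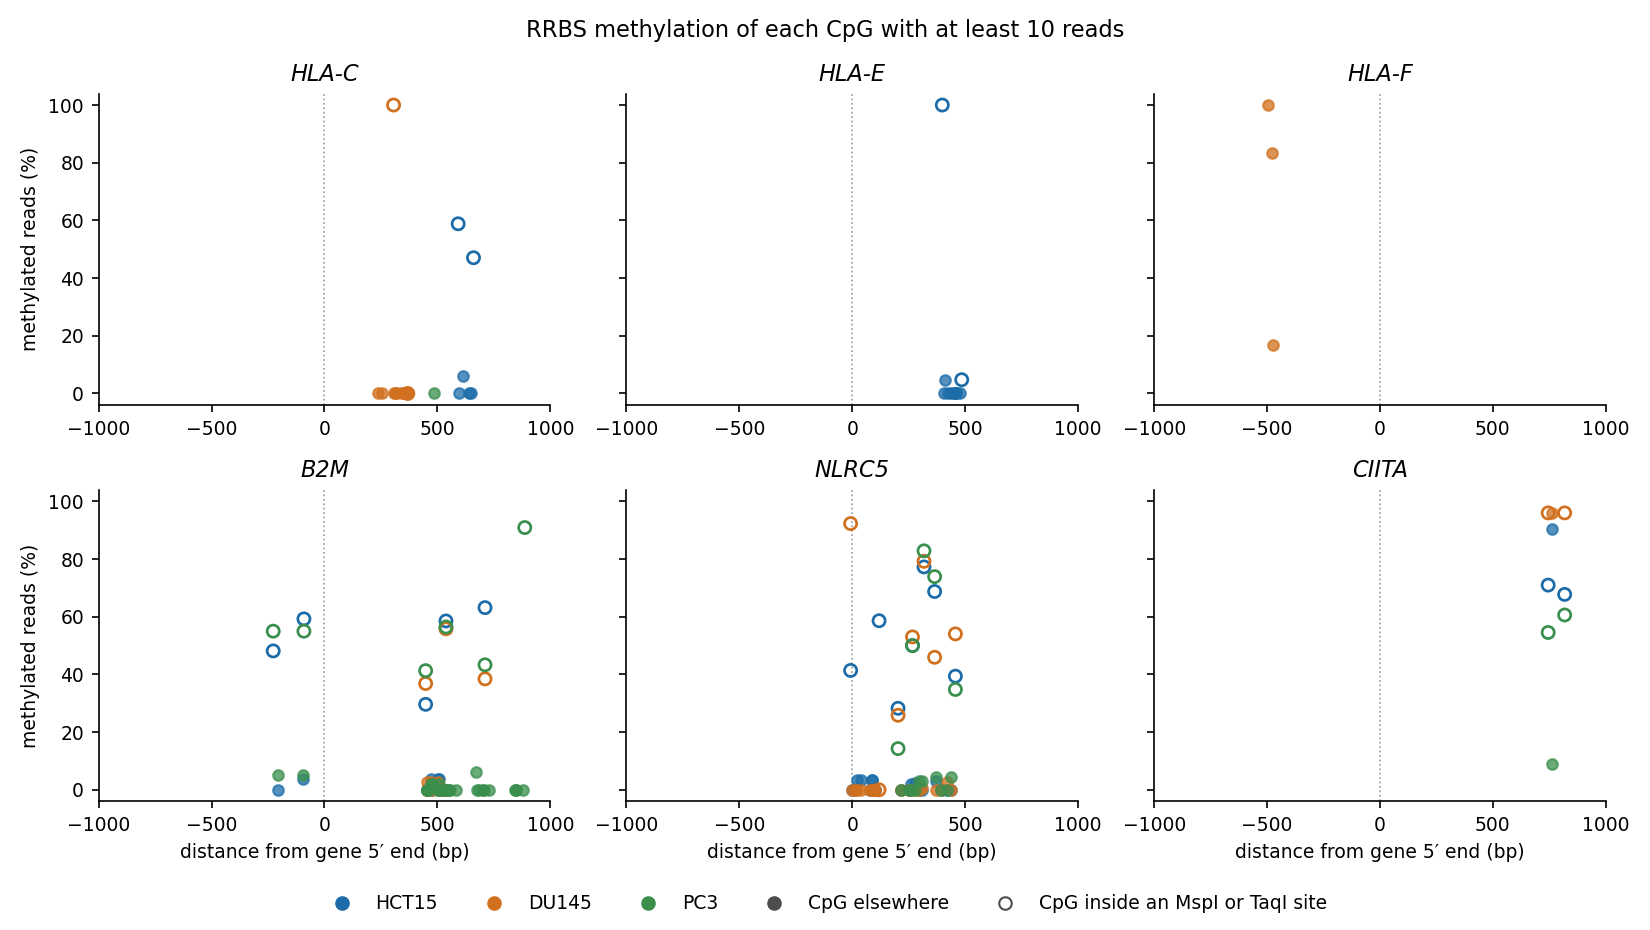
Methylated reads (%) of each CpG with at least 10 reads against its distance from the gene 5′ end (bp, 0 dotted) for the 6 genes that RRBS reached, coloured by cell line; open circles are CpGs inside an MspI or TaqI site. Filled circles lie at the bottom in HLA-C, HLA-E, B2M and NLRC5, while HLA-F reaches 100% and CIITA 96% in DU145.

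The CpGs of HLA-F and CIITA lay in these repeat sequences and were the methylated ones. In HLA-F, the CpG 496 bp upstream had 12 of 12 reads methylated in DU145, that at 478 bp 10 of 12 and that at 473 bp 2 of 12. In CIITA, the CpG 745 bp downstream, inside CCGG, had 71.0%, 96% and 54.5% methylated reads in HCT15, DU145 and PC3. The CpG at 761 bp, outside both sites, had 90.3% (28 of 31 reads, 75.1% to 96.7%) in HCT15, 96% (24 of 25, 80.5% to 99.3%) in DU145 and 9.09% (3 of 33, 3.14% to 23.6%) in PC3. The CpG at 818 bp, inside TCGA, had 67.7%, 96% and 60.6%. PC3 was therefore lowest at each of the 3 CIITA CpGs and far lower at that at 761 bp.

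These single CpGs were set beside CpGs elsewhere in the genome that have the same 20 bases around them, as a description. The context of the CIITA CpG at 761 bp occurred 329 times. The other copies with at least 10 reads had a median of 93.3% in HCT15 (30 copies), 97.7% in DU145 (35 copies) and 91.6% in PC3 (30 copies). The CIITA CpG sat within the quartiles of the other copies in HCT15 and DU145 (83.5% to 100% and 88.7% to 100%) and below them in PC3 (61.8% to 97.3%), where 2 of 30 copies were no higher. For HLA-F in DU145, the CpG at 496 bp upstream, at 100%, compared with a median of 97.3% over 200 other copies. The CpG at 478 bp upstream was at the median of its 292 other copies, 83.3%, and 144 of them were no higher. That at 473 bp upstream, at 16.7%, lay under the lower quartile of its 300 other copies (68.8%), with 10 of them no higher. Each of these HLA-F levels rests on 12 reads.

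**Figure D3:**
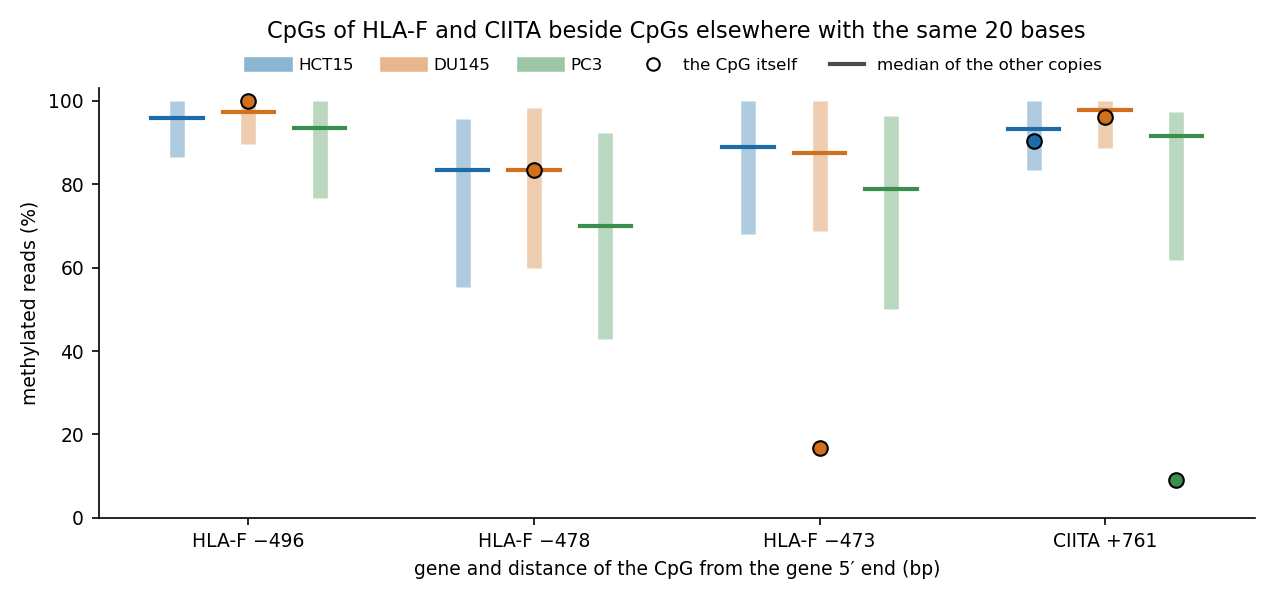
Methylated reads (%) of HLA-F and CIITA CpGs (black-edged circles) beside the median (line) and quartiles (bar) of CpGs with the same 20 bases elsewhere in the genome, by cell line. The CIITA CpG at 761 bp in PC3, at 9.09%, and the HLA-F CpG at 473 bp upstream in DU145, at 16.7%, lie below the quartiles.

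The annotation does not put the main start of every member at the gene 5′ end, and start site use was not measured. For HLA-B, the transcript tagged as canonical starts 9888 bp further downstream and for CIITA 10980 bp, whereas the distance is 659 bp for HLA-F and at most 159 bp for the rest. Around its canonical start, HLA-B was read at 9, 19 and 25 CpGs in HCT15, DU145 and PC3 with means of 2.16%, 16.7% and 13.8%. Outside CCGG and TCGA, 2 of 157 reads were methylated in HCT15 (1.27%, 0.350% to 4.53%), 4 of 359 in DU145 (1.11%, 0.434% to 2.83%) and 3 of 535 in PC3 (0.561%, 0.191% to 1.64%). Between DU145 and PC3, 2 of its 15 shared CpGs were called different by the rule given below, where 16.8% of all CpGs were, both inside CCGG and in opposite directions, the level in DU145 minus that in PC3 being 40.7 and -58.7 points. TAP1 and TAP2, the peptide transporter, had no CpG with enough reads there either. NLRC5 gained 2 CpGs in HCT15 only, 1 of them outside the 2 sites and at 85%, which raised its mean to 19.3%.

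CIITA at its canonical start held methylated CpGs outside the 2 sites in all 3 cell lines, and its pattern along the sequence differed between them. HCT15 averaged 49.3% ± 33.2 (SD over 10 CpGs), DU145 50.9% ± 23.8 over 10 CpGs and PC3 55.4% ± 39.4 over 8 CpGs. Inside CCGG and TCGA the means were 69.6%, 66.4% and 66.9% in HCT15, DU145 and PC3. Outside the 2 sites they were lower, 29.0% in HCT15 (5 CpGs) and 40.6% in DU145 (6 CpGs). In PC3, the 4 CpGs outside the sites stood at 4.35%, 0%, 92.9% and 78.6%. Over the 8 CpGs read in all 3, HCT15 averaged 46.2% and DU145 and PC3 55.4% each. Behind these like means stood unlike CpGs. At 776 bp, DU145 had 16.2% (12 of 74 reads) against 76.2% (32 of 42) in HCT15 and 92.9% (52 of 56) in PC3. At 147 bp the order was turned, with 66.7% in DU145, 36.4% in HCT15 and 0% (0 of 23 reads) in PC3. At 809 bp, HCT15 had 4.76%, DU145 50% and PC3 78.6%. By Fisher's exact test with adjustment over all CpGs of the genome, 4 of the 8 CpGs were called different between HCT15 and DU145, 2 in each direction, against 15.1% of all CpGs. Between DU145 and PC3 the count was again 2 in each direction, against 16.8% of all CpGs, the strongest at 776 bp (adjusted p = 8e-18). Between HCT15 and PC3, 2 CpGs were higher in HCT15 and 1 in PC3, against 15.7%. Of the 8 CpGs, 4 lie inside CCGG or TCGA, and 1 call in each pair was among them. With 1 library per cell line, these tests compare the libraries. The CpG at 776 bp had 42, 74 and 56 reads in HCT15, DU145 and PC3, against 21, 38 and 28 at both 747 and 809 bp. Whether both reads of a pair were counted there was not tested. If they were, some molecules count more than once, and its p-values are too small and its intervals too narrow.

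**Figure D4:**
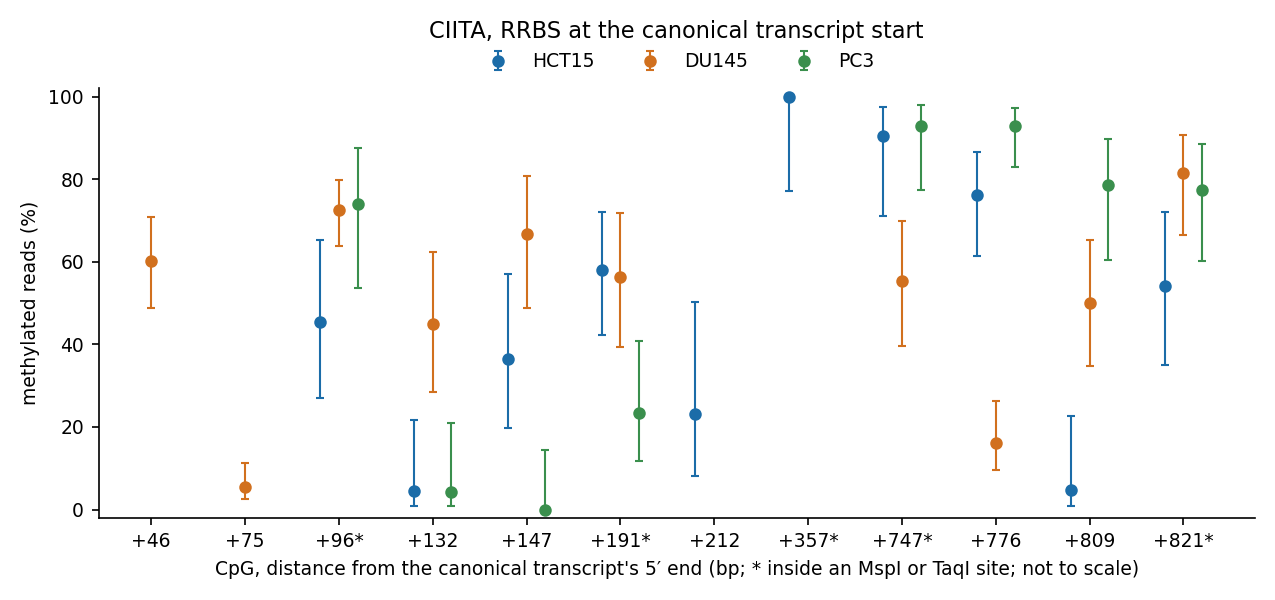
Methylated reads (%) with Wilson 95% intervals at each CpG within 1 kb of the canonical CIITA transcript's 5′ end, by cell line, CpGs in order but not to scale. At 776 bp DU145 lies at 16.2%, below HCT15 (76.2%) and PC3 (92.9%), and at 147 bp it lies above them. The intervals take reads as independent and are too narrow where both reads of a pair were counted, which was not tested.

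In the windows around the gene 5′ ends, few of the member CpGs shared between cell lines differed. The shared CpGs came from B2M, CIITA and NLRC5 alone, 13, 3 and 27 of them between HCT15 and DU145. The other members shared none in any pair and are not described by these counts. A CpG was called where Fisher's exact test gave an adjusted p under 0.05 with a difference of at least 20 percentage points. Between HCT15 and DU145, 2 of 43 shared member CpGs were called, against 15.1% of all CpGs read in both libraries. Both were in NLRC5 and inside TCGA or CCGG. At 7 bp upstream HCT15 had 12 of 29 methylated reads and DU145 12 of 13 (adjusted p = 0.017), and at 119 bp HCT15 had 17 of 29 and DU145 0 of 13 (adjusted p = 0.0032). Between HCT15 and PC3, 1 of 35 was called, against 15.7% of all CpGs, and between DU145 and PC3 3 of 31, against 16.8%. All of these were the CIITA CpGs in the repeat, higher in HCT15 or DU145 than in PC3. The CpG at 761 bp differed by 81.2 percentage points between HCT15 and PC3 (adjusted p = 7.5e-10) and by 86.9 between DU145 and PC3 (adjusted p = 1.6e-10). No B2M CpG was called in any pair, with 13 or 17 shared CpGs.

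By promoter mean, a member was called when the shared CpGs differed by at least 20 percentage points over at least 5 of them, which only B2M and NLRC5 could meet. Neither was called. B2M differed by 1.80 points between HCT15 and DU145, 0.35 between HCT15 and PC3 and -0.66 between DU145 and PC3, and NLRC5 by 1.16, 0.06 and -0.59. Among all promoters with enough shared CpGs, 15.9% were called between HCT15 and DU145, 16.3% between HCT15 and PC3 and 9.94% between DU145 and PC3. CIITA, with 3 shared CpGs, had means of 76.3%, 96% and 41.4% in HCT15, DU145 and PC3 and could not be called.

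In a list of 45 further genes of antigen presentation (class II chains, peptide loading, immunoproteasome and interferon signalling), 22, 23 and 25 promoters had at least 5 shared CpGs in the pairs HCT15 and DU145, HCT15 and PC3, and DU145 and PC3. Of these, 1, 1 and 3 were called, in 3 genes. CD74, the invariant chain that guides class II molecules, was 31.8 points higher in HCT15 (61.8%) than in DU145 and stood at 73.6% in PC3, against 33.0% in DU145 over the CpGs shared by these. TAPBPL, an editor of class I peptides related to tapasin, stood at 92.8% in PC3, against 40.8% in HCT15 and 46.0% in DU145. CD1D, which presents lipids, was 32.9 points higher in DU145 (84.9%) than in PC3 (52.0%). These means include CpGs inside CCGG and TCGA, among them 3 of the 5 CD1D CpGs in DU145. Outside the 2 sites, over all CpGs read in a cell line, TAPBPL averaged 15.5%, 20.2% and 99.2% in HCT15, DU145 and PC3. CD74 averaged 47.9%, 10.5% and 57.3% there. The median difference over the list was -0.73, -0.60 and 0 points in the 3 pairs, against -0.15, 0.02 and 0.14 over all promoters.

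The sequence just around the 5′ end was searched for motifs on both strands, from 250 bases before it to 50 after it. Of the 4 motifs searched, not all are reported here. Those given are CCAAT (bound by NF-Y), TGACG (bound by CREB/ATF factors, part of the class I and II enhancer) and TTTCNNTTT. The last is found in sites of interferon regulatory factors. Matches of different motifs did not overlap in the members, whereas those of TTTCNNTTT overlapped each other in TAP1 and B2M. CCAAT was found in 4 of 9 members and in 35.8% of all promoters, TGACG in 5 of 9 and 26.8%, and TTTCNNTTT in 4 of 9 and 10.2%. These counts include TGACG of HLA-B, CCAAT of CIITA and TTTCNNTTT of HLA-F. The gene 5′ ends of these genes lie 9888, 10980 and 659 bp from their canonical starts. HLA-E held TGACG 107 bp upstream and CCAAT at 84 and 57 bp upstream, and HLA-C held TGACG at 67 bp and CCAAT at 57 bp upstream. RRBS read no CpG in these 300 bases except 4 in B2M and 5 in NLRC5, so that the data do not give the methylation around the matches in the other 7 members.

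MBD-seq covered all 9 promoters, TAP1 and TAP2 included, but depth was low. The libraries held from 10040 fragments (MethylMagnet, DU145) to 7344098 (MethylMiner, HCT15). Evenly spread over the genome, this would give from 0.00757 to 5.62 fragments per promoter window, and 2.99 with MethylCap in HCT15. The kits other than MethylMiner told methylated from unmethylated promoters. In HCT15, the 3042 promoters that RRBS put at 70% or more had 36.7, 27.7, 15.9 and 6.68 times the even number of fragments with MethylMagnet, MethylCollector, MethylCollector Ultra and MethylCap. The 8064 promoters under 20% had 1.82, 1.22, 1.23 and 0.836 times that number. With MethylMiner the values were 1.92 and 1.80, so that its fragments did not separate the 2 classes, and the same held in DU145 (2.35 and 2.20) and PC3 (2.54 and 2.44). At promoters methylated by RRBS in 1 cell line only (174 for HCT15, 6 for DU145 and 18 for PC3, members left out), the 12 libraries of the other kits were highest at the promoters of their own cell line and the 3 MethylMiner libraries were not. In DU145, an even spread gives 0.00757, 0.0223 and 0.0230 fragments per window with MethylMagnet, MethylCollector and MethylCollector Ultra. Over 6 promoters, very few fragments decide the outcome for these libraries.

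Apart from HLA-E and HLA-F, member promoters carried fewer captured fragments than the median promoter. Summed over the 12 libraries without MethylMiner, HLA-B and TAP1 had 0 fragments, HLA-C, B2M and TAP2 1 each, NLRC5 2, CIITA 5, HLA-E 8 and HLA-F 12. An even spread gives 5.83 per window, and the median of all promoters was 6. Of all promoters, 12.6% had 0 fragments in these libraries. No more fragments than CIITA, HLA-E and HLA-F were held by 48.6%, 57.8% and 66.4% of promoters. At HLA-B and TAP1, a count of 0 allows up to 3 fragments in all. The 0 fragments of the shallow libraries say little by themselves: in MethylMagnet from DU145, a count of 0 allows up to 396 times the even number, in MethylCap from HCT15 up to 1.00 times. In that deepest of the selective libraries, the fragments were 0 at HLA-B, B2M and TAP1, 1 at HLA-C and TAP2, 2 at NLRC5, 3 at HLA-F and 4 at HLA-E and CIITA, against a median of 18 at promoters with 70% or more methylation. MethylMiner gave 7 fragments at HLA-B, 26 at TAP1 and 16 to 21 at the other members over its 3 libraries, where an even spread gives 9.46. Over all promoters it averaged 1.67, 1.97 and 2.11 times the even number in HCT15, DU145 and PC3. Over the members it averaged 1.96, 1.39 and 2.35 times.

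HLA-F held the most captured fragments. In HCT15 it had 0, 2, 3, 3 and 9 fragments with MethylMagnet, MethylCollector, MethylCollector Ultra, MethylCap and MethylMiner, in DU145 0, 0, 0, 2 and 4, and in PC3 1, 0, 1, 0 and 6. The 2 MethylCollector fragments in HCT15 were 9.89 times the even number (exact Poisson 95% interval 1.20 to 35.7) and the 3 of MethylCollector Ultra 6.01 times (1.24 to 17.6). Over all promoters in HCT15, these kits averaged 6.60 and 4.28 times the even number, which lies inside the intervals. Of the 12 fragments outside MethylMiner, those of 5 libraries overlapped the Alu stretch. The downstream end of that stretch was set by the MethylCollector Ultra fragments of HCT15, so that the overlap is partly fixed by its definition. They covered 612 to 256 bp upstream with MethylCollector Ultra and 551 to 360 bp with MethylCap in HCT15, 445 to 184 bp with MethylCollector in HCT15, 493 to 288 bp with MethylCap in DU145, and 452 to 261 bp with MethylMagnet in PC3. The CpGs that RRBS read in DU145, at 496, 478 and 473 bp upstream, lie in both MethylCollector Ultra and MethylCap stretches of HCT15, and those at 478 and 473 bp also in that of DU145, whereas the other two stretches do not reach them. The remaining fragments lay 918 to 713 bp upstream (MethylCap in HCT15) and 742 to 883 bp downstream (MethylCollector Ultra in PC3). The study kept uniquely mapped fragments only. Around the canonical start of HLA-F, the 12 libraries held 20 fragments, in 7 of them.

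At CIITA, MethylCap gave 4, 1 and 0 fragments in HCT15, DU145 and PC3, and no other kit than MethylMiner gave any. Those of HCT15 included 2 over 535 to 800 bp downstream, across 2 of the 3 RRBS-read CpGs. HLA-E fragments of the kits other than MethylMiner lay mostly 1133 to 656 bp upstream, reaching past the edge of the window, in HCT15 and PC3, away from the coding exon that RRBS read. Those of HCT15 with MethylCap also included 1 at 268 to 402 bp and 1 at 728 to 959 bp downstream.

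**Figure D5:**
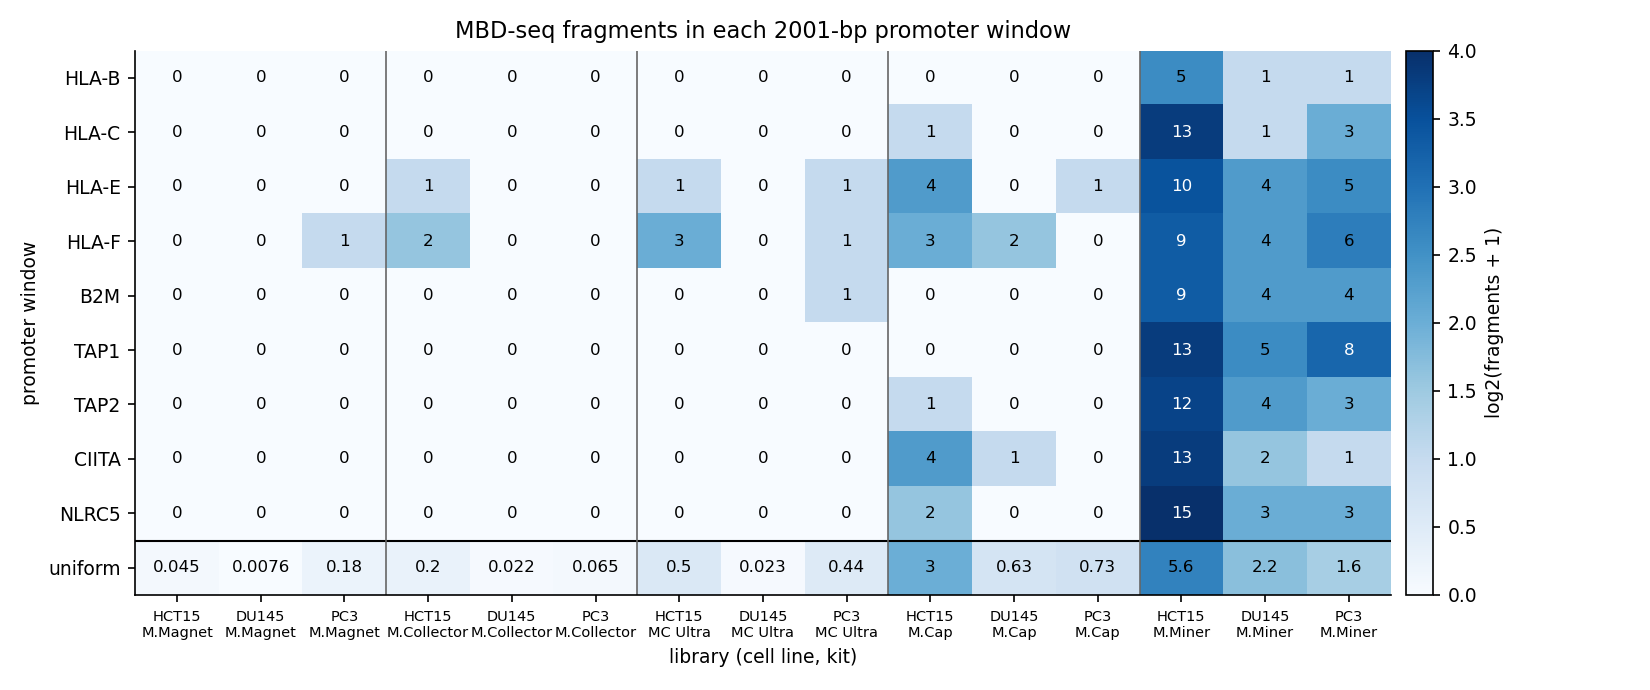
Number of MBD-seq fragments overlapping each member's 2001-bp window in the 15 libraries, printed in each cell and shaded by log2(fragments + 1), kits left to right; the lowest line gives the number expected from an even spread over the genome. HLA-B and TAP1 are at 0 in the 12 libraries left of MethylMiner, and HLA-F has fragments in 6 of them.

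Between cell lines, no member promoter was called different. With edgeR's quasi-likelihood test on fragments, the kit as a block, 17427 promoters had enough fragments, among them all members but HLA-B. Of the 8 members, 0 were called in any pair, 0 reached an unadjusted p of 0.05, and DESeq2 also called 0. Of all promoters, 0.0172% were called between HCT15 and DU145, 2.40% between HCT15 and PC3 and 0.235% between DU145 and PC3 (adjusted p under 0.05). In these windows, the largest fitted difference was that of HLA-C, 2.11 ± 1.20 (log2, SE) higher in HCT15 than in DU145 (adjusted p = 0.81), followed by CIITA, 1.88 ± 1.14 higher in HCT15 than in PC3 (adjusted p = 0.50), and they rest on 18 and 21 fragments over the 15 libraries. Of these fragments, 17 and 16 came from MethylMiner, which did not separate methylated from unmethylated promoters. Without MethylMiner, only 1 member had enough fragments to be tested, so that these fits say little about captured methylation. Around its canonical start, CIITA had 0, 0, 1, 2 and 10 fragments in HCT15, 0 in each library of DU145 and 1, 0, 0, 1 and 2 in PC3, kits in the order given above. There it was the member that reached an unadjusted edgeR p under 0.05, higher in HCT15 than in DU145 (adjusted p = 0.61) and lower in DU145 than in PC3 (adjusted p = 0.52), the latter the opposite direction to the window at the gene 5′ end. The exact permutation of cell lines within kits on the mean depth gave p from 0.167 for HLA-E to 1 for HLA-B and TAP1, but the many libraries at 0 bound it. The smallest exact p that the values allow was 1 for HLA-B and TAP1, 0.333 for HLA-C, B2M, TAP2 and NLRC5 and 0.167 for CIITA, so that this test says nothing about these 7 members. It could have passed 0.05 for HLA-E (smallest p 0.00926) and HLA-F (smallest p 0.00309), whose exact p was 0.167 and 0.531. Without MethylCollector, HLA-E reached p = 0.0278 in this exact test, the smallest its values then allow and unadjusted over the members, with DU145 the lowest.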

How the data were processed

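MBD-seq files held depth signal along GRCh37 (hg19) chromosomes, deposited by the authors after mapping paired-end reads with Bowtie, keeping unique positions and collapsing duplicates. RRBS files, made by a service provider and deposited by the authors, held for each CpG the count of its methylated reads beside the count of all its reads. The aligner for RRBS is not given in the sources used here. The lowest coverage in the RRBS files was 6 reads, and CpGs under 10 reads were left out. Fragments in a window were counted from the depth signal as the depth at its first base plus each later rise. The libraries held 10040 to 7344098 fragments, so that precision differs widely between kits.

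The members and gene lists were chosen with earlier results of these data known. CpGs were tested by Fisher's exact test, 2-sided, with Benjamini-Hochberg adjustment over all CpGs of a pair, and called at an adjusted p under 0.05 and at least 20 points. With 1 RRBS library per cell line, these tests compare libraries. They take reads as independent, and whether both reads of a pair were counted at a CpG was not tested. Promoter means were called at 20 points over at least 5 shared CpGs. Fragments were fitted with edgeR 4.0.16 (quasi-likelihood F test) in R 4.3.3, with the kit as a block, library totals as offsets and at least 10 fragments over all libraries. DESeq2 1.42.0 was an alternative. Single members were tested by exact permutation, 2-sided, of the cell lines within kits on log2(fold + 0.5), the fold being mean depth in the window over the library's genome mean. The kit number comes from the labels and marks 1 kit used on all 3 cell lines. Correlations of the deviations of libraries made with the same kit ranged from -0.0027 to 0.554. Intervals are Wilson or exact Poisson at 95%, and 3 fragments are the limit for a count of 0. Genes other than members were to be named by their likeness to a member called different, and as none was, none was named by that rule. The edgeR fit and the Fisher's exact tests were tested on simulated data. Alternatives were coverage of 20 reads, other windows, other normalizations, no filter, no kit block and leaving out each kit. Leaving out CpGs inside CCGG and TCGA, and the canonical start for fragments, were added after the data were seen. Sequences were read from GRCh37 with GENCODE 44 annotation. Some items are not reported here.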

Additional observations from a re-analysis of the deposited data

Results flagged for a closer look

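Within a cell line, the mean depth of a member's window relative to the library's genome mean was compared across the 5 kits. In 19 of 27 such groups, 1 kit lay farther from the nearest other than Dixon's critical value of 0.71 of the range allows. Chance gives about 1 in 20 where values are not tied. The kit was MethylMiner in each of the 19, and in 16 of them the other kits were at 0, where any MethylMiner fragment meets the rule, so that the 19 cannot be read against that rate. MethylMiner had the deepest library of each cell line, and its part in these values was not tested beyond the values given here.

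At the heavy chain genes, the MethylMiner value was 0.969, 0.305 and 0.635 times the genome mean for HLA-B in HCT15, DU145 and PC3, 2.46, 0.431 and 2.30 for HLA-C, and 1.71 for HLA-E in DU145. At the light chain gene B2M it was 1.70 in HCT15 and 2.04 in DU145. TAP1, of the peptide transporter, had 2.39, 2.07 and 5.82 in HCT15, DU145 and PC3, and its partner TAP2 2.37, 2.44 and 2.01. Among the regulators, CIITA had 0.621 in PC3 and NLRC5 had 2.41, 1.62 and 1.37 in HCT15, DU145 and PC3. Counted in fragments, MethylMiner averaged 1.67, 1.97 and 2.11 times an even spread over all promoters in these cell lines.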

How the results depend on the processing

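B2M and NLRC5 were called different between cell lines by promoter mean under none of the RRBS alternatives run. Among single member CpGs, the count between HCT15 and DU145 fell from 2 of 43 to 0 of 30 at a coverage of 20 reads (17.2% of all CpGs) and to 0 of 31 without CpGs inside CCGG and TCGA (17.6%), and that between DU145 and PC3 from 3 of 31 to 1 of 21 without them (18.6%). In MBD-seq, members were called 0 times under every alternative, with CIITA at an unadjusted p under 0.05 around the canonical start in 2 pairs, whereas the counts over all promoters moved. Between HCT15 and DU145 (3 called), TMMwsp gave 0 and DESeq2 0, and leaving out 1 kit 1 to 73. Between HCT15 and PC3 (419 called, 319 higher in HCT15), TMMwsp gave 44, DESeq2 3, a 500-bp flank 220 and the fit with no replicate block 143, and leaving out 1 kit 56 to 1449. Between DU145 and PC3 (41 called), TMMwsp gave 0, DESeq2 0, a 500-bp flank 11 and no replicate block 0, and leaving out 1 kit 4 to 131. The highest counts came without MethylMiner, over 7998 promoters with 1 member among them, and the cause of the others was not tested. TMMwsp moved the median log2 difference of all promoters to 0.46, 0.21 and -0.26 in these pairs. Without the block, the exact permutation p of HLA-E was 0.309, and leaving out 1 kit gave 0.0278 to 0.5. Of the other members, the values of HLA-F alone allowed a p under 0.05, and its p was 0.343 to 0.907 when leaving out 1 kit. Depth limits the MBD-seq values: a count of 0 in MethylMagnet from DU145 allows 396 times an even spread.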
